A study of Homo sapiens with 9 samples.

Results

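Genes of autophagy and mitophagy were followed in 3 human leukaemia cell lines after exposure to a histone deacetylase (HDAC) inhibitor. The 10 genes, of 16577 with a symbol on the array, were ULK1, BECN1, WIPI1, ATG12, ATG5, MAP1LC3B, GABARAPL1, SQSTM1, BNIP3 and BNIP3L, and every probe that the platform annotation gives to one of them was kept, which was 11 probes of 22177. ULK1 had 2 probes and each of the others had 1. The NB4 line comes from an acute promyelocytic leukaemia, K562 from the blast crisis of a chronic myeloid leukaemia, and U937 is monocytic, whereas the labels call each an AML line. Each line was exposed for 6 h to SAHA (vorinostat) at 5 µM, to MS-275 (entinostat) at 5 µM, or left untreated, with 1 array for each of the 9 combinations. SAHA, a hydroxamic acid, blocks zinc-dependent HDACs of more than one class, whereas MS-275, a benzamide, is selective for class I. The inhibitors were dissolved in DMSO, and the labels do not say whether untreated cells were given solvent, whose effect cannot be told apart from that of an inhibitor.

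Autophagy encloses cytoplasm in a double membrane, the autophagosome, and delivers it to the lysosome for breakdown. The ULK1 kinase starts the process, a Beclin 1 lipid kinase complex marks the membrane with the lipid PI3P, WIPI proteins bind that lipid, and a conjugation system built on ATG12 and ATG5 attaches ATG8-family proteins such as LC3B and GABARAPL1 to the growing membrane. Receptors then tie cargo to the ATG8 proteins: SQSTM1 (p62) ties ubiquitinated proteins, and BNIP3 and BNIP3L (NIX) tie mitochondria, which is mitophagy. BNIP3L clears mitochondria from maturing red cells. Arrays report transcript levels, not autophagic flux, and in RNA of whole cultures fewer cells of a type and less RNA per cell cannot be told apart.

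For comparisons of treatments the lines were the replicates. Each probe was fitted in limma with terms for treatment and line, which left 4 residual degrees of freedom, with Benjamini-Hochberg adjustment over all 13836 probes detected on at least 3 of 9 arrays, which 10 of the 11 probes were. A gene was called at an adjusted p under 0.05. The labels do not say that the arrays came from separate cultures, and no slide or date is recorded. Each array detected 11826 to 12705 probes, with the fewest in untreated cells in each line. The line labels were set against known markers: 9 of 9 erythroid genes on the array were highest in K562 and 6 of 7 monocytic genes were highest in U937. Of 7 promyelocytic granule genes, 6 were detected on all NB4 arrays, but 1, MPO, was highest in NB4 and the others were highest in U937. CDKN1A (p21), a known target of HDAC inhibitors, had a log2 change of 3.20 with SAHA (adjusted p = 0.00159) and of 3.18 with MS-275 (adjusted p = 0.00579).

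The promoters of 5 of the 6 genes that rose with SAHA are shown because each of them passed the same test, and that of BNIP3L is not shown. Whether the genes are regulated together was not tested. Each run is the 250 bases upstream of the RefSeq transcription start in GRCh38.p14, read 5′ to 3′ on the gene's strand. They lie at chr17:68457497-68457746 (minus strand) for WIPI1, chr10:131981924-131982173 (minus strand) for BNIP3, chr12:131894372-131894621 (plus strand) for ULK1, chr16:87392086-87392335 (plus strand) for MAP1LC3B and chr12:10212627-10212876 (plus strand) for GABARAPL1. Capitals mark matches to the GC box GGGCGG, the E-box CACGTG, the CRE TGACGTCA and the CCAAT box CCAAT, each searched on both strands with overlapping matches counted.
WIPI1: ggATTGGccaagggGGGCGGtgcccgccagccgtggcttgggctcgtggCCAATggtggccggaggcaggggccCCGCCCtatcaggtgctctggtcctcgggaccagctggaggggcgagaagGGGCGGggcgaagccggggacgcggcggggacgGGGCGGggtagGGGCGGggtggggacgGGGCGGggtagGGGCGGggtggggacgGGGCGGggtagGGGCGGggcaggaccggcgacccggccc
BNIP3: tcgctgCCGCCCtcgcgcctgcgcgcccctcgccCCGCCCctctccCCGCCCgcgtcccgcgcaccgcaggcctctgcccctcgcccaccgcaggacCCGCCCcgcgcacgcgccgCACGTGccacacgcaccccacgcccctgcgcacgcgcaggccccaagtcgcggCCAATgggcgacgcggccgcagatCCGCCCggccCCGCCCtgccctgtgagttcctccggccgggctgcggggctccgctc
ULK1: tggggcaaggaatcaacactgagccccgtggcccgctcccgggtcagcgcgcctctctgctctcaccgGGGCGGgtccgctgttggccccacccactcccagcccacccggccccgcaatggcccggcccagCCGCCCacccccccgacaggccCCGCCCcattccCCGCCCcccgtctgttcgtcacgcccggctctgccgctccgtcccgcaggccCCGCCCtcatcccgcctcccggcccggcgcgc
MAP1LC3B: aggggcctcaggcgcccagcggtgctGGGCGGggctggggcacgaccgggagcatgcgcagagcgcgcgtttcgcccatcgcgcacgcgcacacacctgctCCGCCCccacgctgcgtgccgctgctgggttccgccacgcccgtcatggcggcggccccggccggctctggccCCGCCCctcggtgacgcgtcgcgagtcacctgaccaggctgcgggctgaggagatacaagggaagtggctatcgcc
GABARAPL1: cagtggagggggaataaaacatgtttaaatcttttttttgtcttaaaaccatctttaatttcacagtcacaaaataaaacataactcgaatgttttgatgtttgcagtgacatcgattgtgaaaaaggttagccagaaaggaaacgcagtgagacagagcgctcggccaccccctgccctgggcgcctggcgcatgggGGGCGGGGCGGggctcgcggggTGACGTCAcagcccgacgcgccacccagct

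The GC box, which Sp1-family factors bind, was found in all 5 windows shown, against 42.6% of the 35116 promoter windows of the RefSeq table. The share of G or C was 79.6% for WIPI1, 81.6% for BNIP3, 78% for ULK1, 74.8% for MAP1LC3B and 51.6% for GABARAPL1. The comparison with all windows is not matched for that share. It was 73.6% to 75.2% in the windows of SQSTM1, which did not pass the test with SAHA. WIPI1 had 9 GC boxes, a number reached by 100 of those windows (0.285%). BNIP3 had 6, reached by 2.22% of windows, and ULK1 had 5, reached by 4.15%. MAP1LC3B had 3, reached by 13.9% of windows, and GABARAPL1 had 2 that share a base, reached by 24.3%. An E-box was found in the BNIP3 window alone of the 5 (6.34% of all windows hold one), and a CRE in that of GABARAPL1 alone (1.65% of all windows). CCAAT boxes, found in 32.0% of all windows, numbered 2 in WIPI1 and 1 in BNIP3. Among genes that did not pass the test with SAHA, the windows of ATG12 and BECN1 held no GC box, those of SQSTM1 held 2, 3 and 4 at its 3 starts, and ATG5 had 1 at one of its starts and none at the other. These are letter matches in a short window, and binding was not measured.

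With SAHA, 6 of the 10 genes tested rose and 0 fell, where 11.3% of all probes tested rose and 11.5% fell. The genes were chosen with earlier results of these data known, so the count against that share is a description and not a test of the pathway. The genes that rose were the initiating kinase ULK1, the PI3P-binding WIPI1, the ATG8 proteins MAP1LC3B and GABARAPL1, and the mitophagy receptors BNIP3 and BNIP3L. BECN1, ATG12, ATG5 and SQSTM1 did not pass the test. With MS-275 at the same dose and time, 0 of the 10 genes passed the test in either direction, where 3.99% of all probes rose and 7.19% fell. The median log2 change of the 10 genes was 0.88 with SAHA (−0.02 over all probes) and 0.02 with MS-275 (−0.03 over all probes). Both comparisons use the same untreated arrays.

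**Figure D1:**
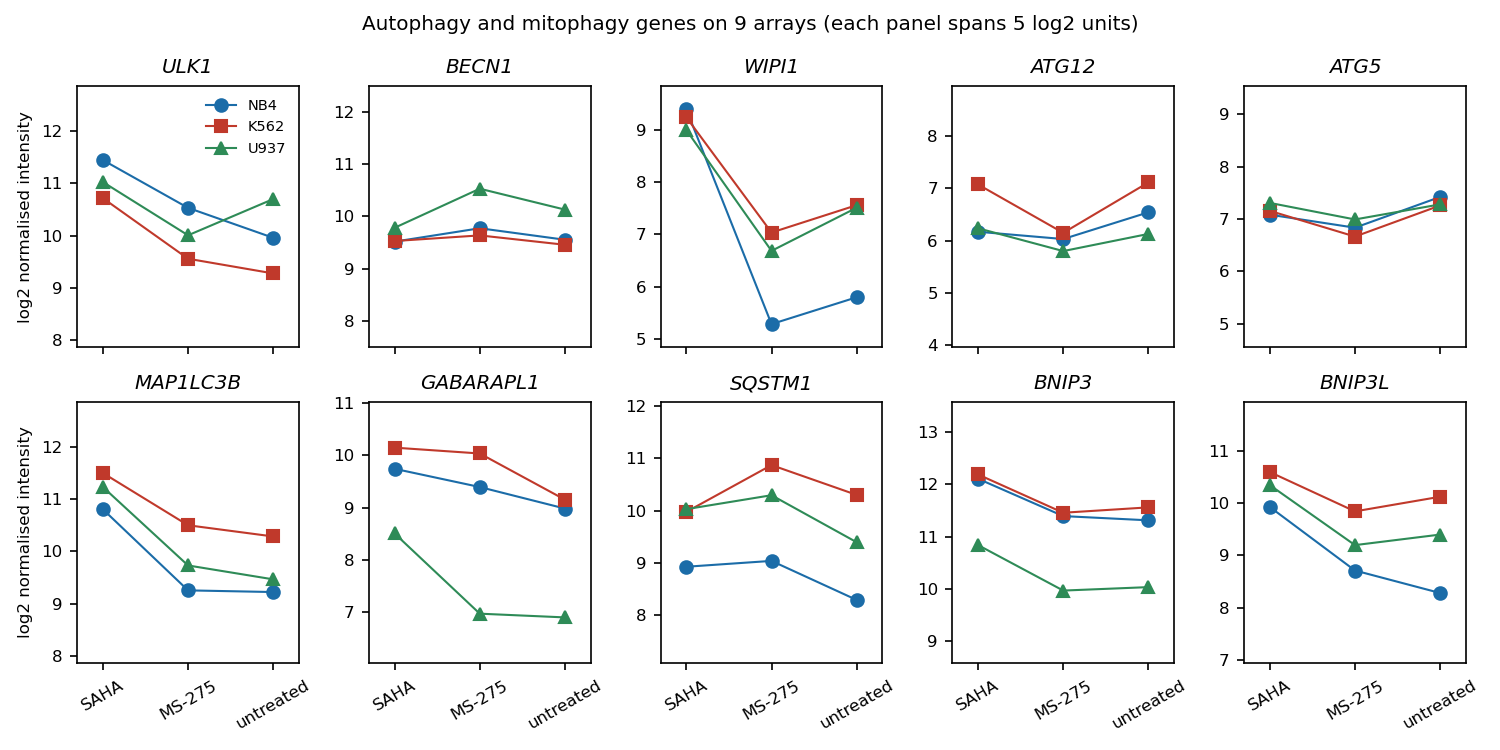
Log2 normalised intensity of each of the 10 genes (vertical axis, each panel spanning 5 log2 units) with SAHA, MS-275 and no inhibitor (horizontal axis). Each point is 1 array and lines join the arrays of 1 cell line, and for WIPI1 the 3 SAHA arrays lie at 8.99 to 9.39 with all other arrays at 7.56 or below.

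ULK1 encodes the kinase that starts autophagosome formation. Its detected probe had log2 levels of 11.44 in NB4, 10.72 in K562 and 11.02 in U937 with SAHA. With MS-275 the levels were 10.53 in NB4, 9.56 in K562 and 10.01 in U937, and in untreated cells 9.96 in NB4, 9.28 in K562 and 10.70 in U937. Every SAHA array was above every other array, although K562 with SAHA stood just above untreated U937. ULK1 rose 2.12-fold with SAHA (log2 change 1.08 ± 0.26, SE, 3 lines, adjusted p = 0.0222). The rise was 1.49 in NB4, 1.44 in K562 and 0.33 in U937 on the log2 scale. The call was lost without NB4 (adjusted p = 0.149) and without K562 (0.144). With MS-275 its log2 change was 0.05 ± 0.26 (adjusted p = 0.909), made of 0.57 in NB4, 0.28 in K562 and −0.69 in U937. The other ULK1 probe was not detected on any array (detection p 0.138 to 0.770) and was not tested.

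BECN1 encodes Beclin 1, the scaffold of the lipid kinase complexes. Its log2 levels were 9.51 in NB4, 9.53 in K562 and 9.78 in U937 with SAHA. They were 9.77, 9.63 and 10.53 in the same order of lines with MS-275, and 9.55, 9.45 and 10.13 in untreated cells. The groups overlapped. The log2 change was −0.10 ± 0.15 with SAHA (adjusted p = 0.677) and 0.27 ± 0.15 with MS-275 (adjusted p = 0.278).

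WIPI1 encodes a protein that binds PI3P on the forming autophagosome. Its log2 levels with SAHA were 9.39 in NB4, 9.24 in K562 and 8.99 in U937. With MS-275 they were 5.28 in NB4, 7.03 in K562 and 6.68 in U937, and in untreated cells 5.80 in NB4, 7.56 in K562 and 7.51 in U937. All 3 SAHA arrays were above all others, and NB4 was the lowest line without SAHA and the highest with it. WIPI1 rose 4.77-fold with SAHA (log2 change 2.25 ± 0.41, SE, 3 lines, adjusted p = 0.00845), with a 95% interval of 1.30 to 3.20. NB4 had a log2 rise of 3.59, K562 of 1.68 and U937 of 1.49. Without NB4 the rise was 3.00-fold (adjusted p = 0.0271). With MS-275 the difference from untreated cells was negative in all 3 lines, at −0.51 in NB4, −0.52 in K562 and −0.83 in U937, and did not pass the test (log2 change −0.62 ± 0.41, adjusted p = 0.345). NB4 was close to background with MS-275 (detection p 0.038) and without an inhibitor (0.0127). The NB4 rise of 3.59 with SAHA therefore rests partly on a value near background. In the authors' deposited log2 values, which hold no background correction, NB4 stood at 9.53 with SAHA and 7.01 untreated. The WIPI1 log2 change with SAHA over the 3 lines was 1.69 in those values. It was 1.94 with a background offset of 50, and the test was passed in both settings.

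ATG12 and ATG5 encode the conjugate that helps attach ATG8 proteins to membrane. ATG12 had log2 levels of 6.17 in NB4, 7.07 in K562 and 6.24 in U937 with SAHA, of 6.03, 6.15 and 5.80 with MS-275 and of 6.54, 7.11 and 6.13 in untreated cells, in the same order of lines. ATG5 had 7.08, 7.15 and 7.31 with SAHA, 6.83, 6.66 and 6.99 with MS-275, and 7.42, 7.26 and 7.28 in untreated cells. All 3 MS-275 arrays of ATG5 were below all other arrays, and the ATG12 groups overlapped. Neither passed the test with SAHA, where the log2 change was −0.10 ± 0.18 for ATG12 (adjusted p = 0.736) and −0.14 ± 0.13 for ATG5 (adjusted p = 0.501). With MS-275 it was −0.60 ± 0.18 for ATG12 (adjusted p = 0.0716) and −0.49 ± 0.13 for ATG5 (adjusted p = 0.0541), each negative in all 3 lines. These MS-275 values lay near the threshold. Under other filters of low probes or another scaling, ATG5 passed in 4 settings (adjusted p from 0.0299 to 0.0499). ATG12 passed with the probes detected on all 9 arrays (0.0446). ATG5 did not pass with an intensity trend (0.094), and neither gene passed with any 1 line left out. ATG12 was dim on every array (detection p 0.00141 to 0.0113). In the authors' deposited log2 values the ATG12 change with MS-275 was −0.32 (adjusted p = 0.107).

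MAP1LC3B encodes LC3B, the ATG8 protein most used to follow autophagosomes. Its log2 levels with SAHA were 10.81 in NB4, 11.50 in K562 and 11.23 in U937. With MS-275 they were 9.26 in NB4, 10.50 in K562 and 9.73 in U937, and in untreated cells 9.22 in NB4, 10.29 in K562 and 9.47 in U937. The SAHA arrays did not overlap the others. MAP1LC3B rose 2.87-fold with SAHA (log2 change 1.52 ± 0.15, SE, 3 lines, adjusted p = 0.00168), and by 1.58 in NB4, 1.21 in K562 and 1.77 in U937 on the log2 scale. With MS-275 its log2 change was 0.17 ± 0.15 (adjusted p = 0.489), and its sign turned when arrays were scaled to equal medians (−0.13). A near-identical gene, MAP1LC3B2, need not be told apart by this probe.

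GABARAPL1 encodes another ATG8 protein. Its log2 levels were 9.74 in NB4, 10.15 in K562 and 8.50 in U937 with SAHA. With MS-275 they were 9.39 in NB4, 10.03 in K562 and 6.97 in U937, and in untreated cells 8.98 in NB4, 9.15 in K562 and 6.90 in U937. The groups overlapped, with U937 low in each of them and K562 with MS-275 above NB4 with SAHA, but in each line SAHA was highest and untreated lowest. GABARAPL1 rose 2.17-fold with SAHA (log2 change 1.12 ± 0.26, SE, 3 lines, adjusted p = 0.0214), and the call was lost when NB4 (adjusted p = 0.0876), K562 (0.0606) or U937 (0.0545) was left out. With MS-275 the log2 change was 0.46 ± 0.26 (adjusted p = 0.287), made of 0.41 in NB4, 0.88 in K562 and 0.07 in U937. The near-identical gene GABARAPL3 need not be told apart.

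SQSTM1 encodes the cargo receptor p62. Its log2 levels were 8.93 in NB4, 9.98 in K562 and 10.03 in U937 with SAHA. With MS-275 they were 9.04 in NB4, 10.87 in K562 and 10.30 in U937, and in untreated cells 8.29 in NB4, 10.30 in K562 and 9.40 in U937. In all 3 lines the MS-275 array was the highest. Neither comparison passed the test, with a log2 change of 0.31 ± 0.21 with SAHA (adjusted p = 0.325) and of 0.74 ± 0.21 with MS-275 (1.67-fold, adjusted p = 0.0611). The MS-275 value passed with the probes detected on all 9 arrays (adjusted p = 0.0365) and with an intensity trend in the variance (0.0489). With equal medians the log2 change was 0.47 (adjusted p = 0.182). The MS-275 value did not pass in the other settings, or with any 1 line left out.

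BNIP3 and BNIP3L encode the mitochondrial receptors. BNIP3 had log2 levels of 12.11 in NB4, 12.19 in K562 and 10.84 in U937 with SAHA, of 11.39, 11.46 and 9.97 with MS-275, and of 11.31, 11.56 and 10.03 in untreated cells, in the same order of lines. The groups overlapped because of U937, yet within every line the SAHA array was the highest. BNIP3 rose 1.67-fold with SAHA (log2 change 0.74 ± 0.12, SE, 3 lines, adjusted p = 0.00557), which was lost without NB4 (0.0593) and without U937 (0.0625). With MS-275 its log2 change was −0.03 ± 0.12 (adjusted p = 0.889), with a 95% interval of −0.30 to 0.25.

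BNIP3L had log2 levels of 9.93 in NB4, 10.60 in K562 and 10.35 in U937 with SAHA. With MS-275 they were 8.71 in NB4, 9.84 in K562 and 9.20 in U937, and in untreated cells 8.28 in NB4, 10.12 in K562 and 9.40 in U937. SAHA was highest in every line, and the groups overlapped through untreated K562. BNIP3L rose 2.03-fold with SAHA (log2 change 1.02 ± 0.22, SE, 3 lines, adjusted p = 0.0147), and the call was lost without NB4 (0.0876) and without U937 (0.0986). With MS-275 its log2 change was −0.02 ± 0.22 (adjusted p = 0.967), made of 0.43 in NB4, −0.28 in K562 and −0.20 in U937.

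**Figure D2:**
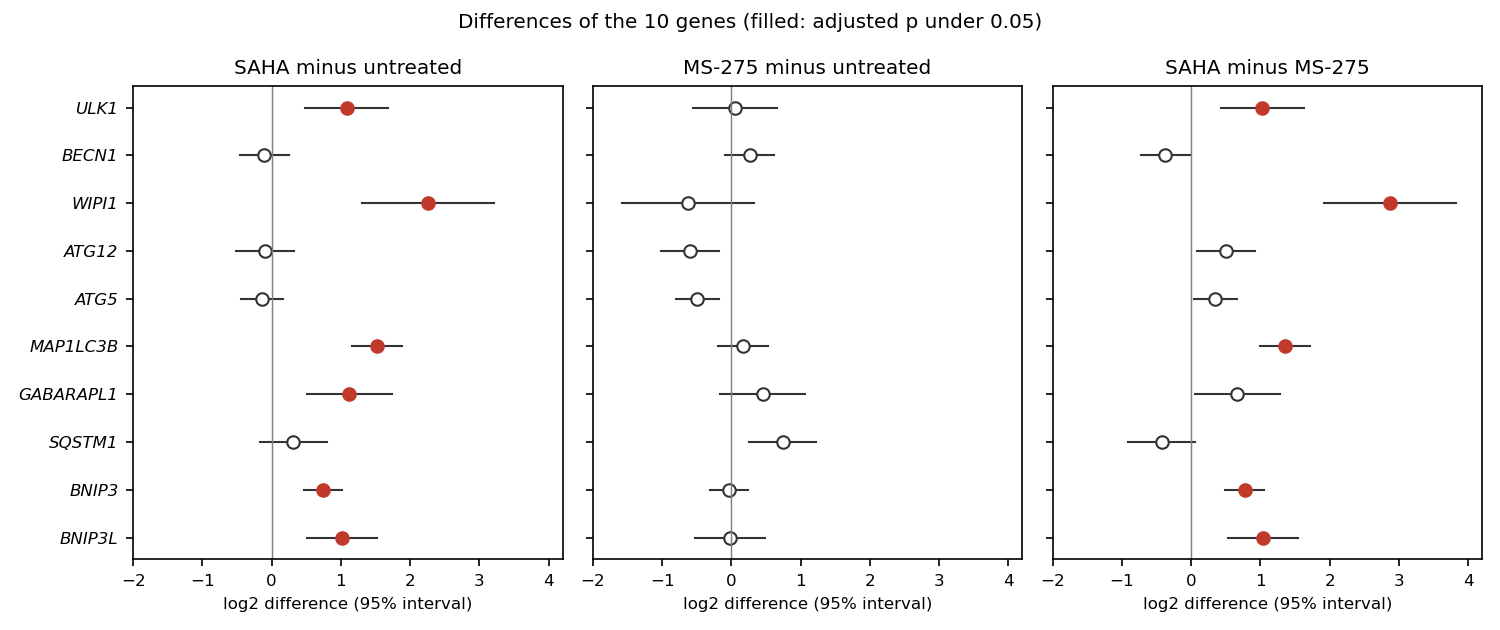
Log2 difference of each gene (horizontal axis) with its 95% interval, for SAHA minus untreated, MS-275 minus untreated and SAHA minus MS-275, from limma's model of treatment and line (3 lines). Filled points had an adjusted p under 0.05, which 6, 0 and 5 of the 10 genes reached.

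The inhibitors were set against each other directly, since dose and time were the same. SAHA gave higher levels than MS-275 for 5 of the 10 genes and lower levels for 0, where 13.1% of all probes were higher and 9.97% lower. Among the probes detected on all 9 arrays, a larger share differed, and 5 of the 10 genes passed. The difference was 7.33-fold for WIPI1 (log2 2.87 ± 0.41, adjusted p = 0.00446), 2.55-fold for MAP1LC3B (1.35 ± 0.15, adjusted p = 0.00252) and 2.05-fold for BNIP3L (1.04 ± 0.22, adjusted p = 0.0151). It was 2.04-fold for ULK1 (1.03 ± 0.26, adjusted p = 0.0278) and 1.71-fold for BNIP3 (0.77 ± 0.12, adjusted p = 0.00551). The WIPI1 difference was 4.17-fold in the authors' deposited log2 values, which hold no background correction, and 4.78-fold without NB4. The ULK1 difference was lost without NB4 (adjusted p = 0.0929), without K562 (0.121) and without a detection filter (0.0575), and those of BNIP3L (0.125) and BNIP3 (0.0708) were lost without U937.

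For the other 5 genes the test did not separate the inhibitors, and the intervals of the log2 difference show what sizes remain possible. They were 0.05 to 1.28 for GABARAPL1 (adjusted p = 0.111), 0.08 to 0.92 for ATG12 (0.0852) and 0.05 to 0.66 for ATG5 (0.0951). They were −0.72 to −0.02 for BECN1 (0.120) and −0.91 to 0.06 for SQSTM1 (0.183). The interval of BECN1 lay wholly and that of SQSTM1 mostly below 0, on the side of higher levels with MS-275. These intervals are not adjusted for the number of probes tested. Those of GABARAPL1, ATG12, ATG5 and BECN1 therefore leave out 0 although the adjusted p did not pass.

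The lines differed in their levels of these genes, averaged over the 3 treatments. GABARAPL1 averaged 9.37 in NB4 and 9.78 in K562, which did not differ past the threshold (adjusted p = 0.241), and 7.46 in U937. It was 3.77-fold higher in NB4 than in U937 (adjusted p = 0.00101) and 4.99-fold higher in K562 than in U937 (adjusted p = 0.00027). BNIP3 had the same order, at 11.60 in NB4, 11.73 in K562 and 10.28 in U937, with the first pair not separated (adjusted p = 0.396). It was 2.50-fold higher in NB4 than in U937 (adjusted p = 0.00014) and 2.74-fold higher in K562 than in U937 (adjusted p = 4.86e-05).

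SQSTM1 was lowest in NB4, at 8.75 against 10.38 in K562 (3.09-fold, adjusted p = 0.000542) and 9.91 in U937 (2.22-fold, adjusted p = 0.00349). BNIP3L had the same order, at 8.97 in NB4, 10.19 in K562 and 9.65 in U937, with adjusted p = 0.00264 for NB4 against K562, 0.0377 for NB4 against U937 (0.0658 without a detection filter) and 0.0686 for K562 against U937. MAP1LC3B averaged 9.76 in NB4, 10.76 in K562 and 10.14 in U937, and K562 was above both NB4 (adjusted p = 0.00134) and U937 (0.0114). The difference of MAP1LC3B between K562 and U937 was lost with equal medians (0.0611). ATG12 was likewise highest in K562, at 6.25 in NB4, 6.78 in K562 and 6.05 in U937, with adjusted p = 0.0405 for NB4 against K562, which was lost in 4 settings (0.0527 to 0.0859), and 0.0111 for K562 against U937. ULK1 was lowest in K562, at 10.64 in NB4, 9.85 in K562 and 10.58 in U937, with adjusted p = 0.0351 for NB4 against K562 and 0.0462 for K562 against U937, and both were lost without a detection filter (0.0687 and 0.0854). BECN1, the scaffold, was highest in U937, at 9.61 in NB4, 9.54 in K562 and 10.14 in U937, with adjusted p = 0.024 for NB4 against U937 and 0.0115 for K562 against U937. ATG5 (7.11 in NB4, 7.02 in K562 and 7.19 in U937) and WIPI1 (6.82, 7.94 and 7.73 in the same order) did not differ past the threshold between any pair of lines, with adjusted p = 0.053 for WIPI1 in NB4 against K562. That WIPI1 difference passed with the probes detected on all 9 arrays (0.041), with a detection p under 0.01 (0.0488) and with an intensity trend (0.0457), and ATG5 in K562 against U937 passed with equal medians (0.0469).

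Counted by pair of lines, 1 gene was higher and 4 were lower in NB4 than in K562, where 26.9% of all probes were higher and 23.3% lower. In NB4 against U937, 2 genes were higher and 3 lower, where 23.1% of probes were higher and 21% lower. In K562 against U937, 4 genes were higher and 2 lower, where 26.6% of probes were higher and 26.4% lower. The genes' shares stand near that background.

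Whether the response to an inhibitor differed between lines was tested with the inhibitors pooled, with 3 residual degrees of freedom that hold the difference between them. No probe of 13836 passed (0% of all), and 202 probes (1.46%) had an unadjusted p under 0.05, none of them a probe of these genes. The lowest unadjusted p of the 10 genes was 0.477, for ULK1. Within each line SAHA and MS-275 differed (log2 4.11 in NB4, 2.20 in K562 and 2.31 in U937 for WIPI1), which enlarges that residual. For genes that changed with SAHA alone the test could therefore hardly detect a line difference, and no conclusion is drawn from it. The larger SAHA rise of WIPI1 in NB4 and the smaller one of ULK1 in U937 each rest on 1 array per line and treatment, and a difference between lines with SAHA alone was not tested.

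The 5 genes whose pattern over the 9 arrays was most like that of WIPI1, once line means were removed, were ACD (Pearson r 0.995), TBCE (0.986), DGCR2 (0.984), NECAP2 (0.983) and CABLES2 (0.983), of 7712 genes detected on all arrays. Their log2 change with SAHA was between 0.39 for TBCE and 1.60 for CABLES2, against 2.25 for WIPI1. The points share arrays and their scaling, and the correlations are a description.

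Another 132 genes of the pathway were listed by role, of which 123 were on the array and 116 were tested, each by its brightest probe. These lists, too, were chosen with earlier results of these data known, and their counts are a description. With SAHA 33 of the 116 rose and 5 fell (28.4% and 4.31%), where 12% of all 11228 genes rose and 11.8% fell, and the median log2 change was 0.28 (−0.01 over all genes). With MS-275 6 rose and 9 fell (5.17% and 7.76%), where 4.33% of all genes rose and 7.47% fell, with a median of 0.00 (−0.02 over all genes). SAHA was above MS-275 for 40 and below it for 10, where 13.5% of all genes were above and 10.3% below. The counts depended on scaling. With arrays set to equal medians, 29 genes rose and 11 fell with SAHA, and 5 rose and 27 fell with MS-275. The whole array shifted as well. Of all 13836 probes, equal medians gave 1185 higher and 2168 lower with SAHA, against 1562 and 1593 with quantile scaling. With MS-275 it gave 423 higher and 2188 lower, against 552 and 995. The shares of all genes given above (12% and 11.8% with SAHA, 4.33% and 7.47% with MS-275) are also the background for the lists below.

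**Figure D3:**
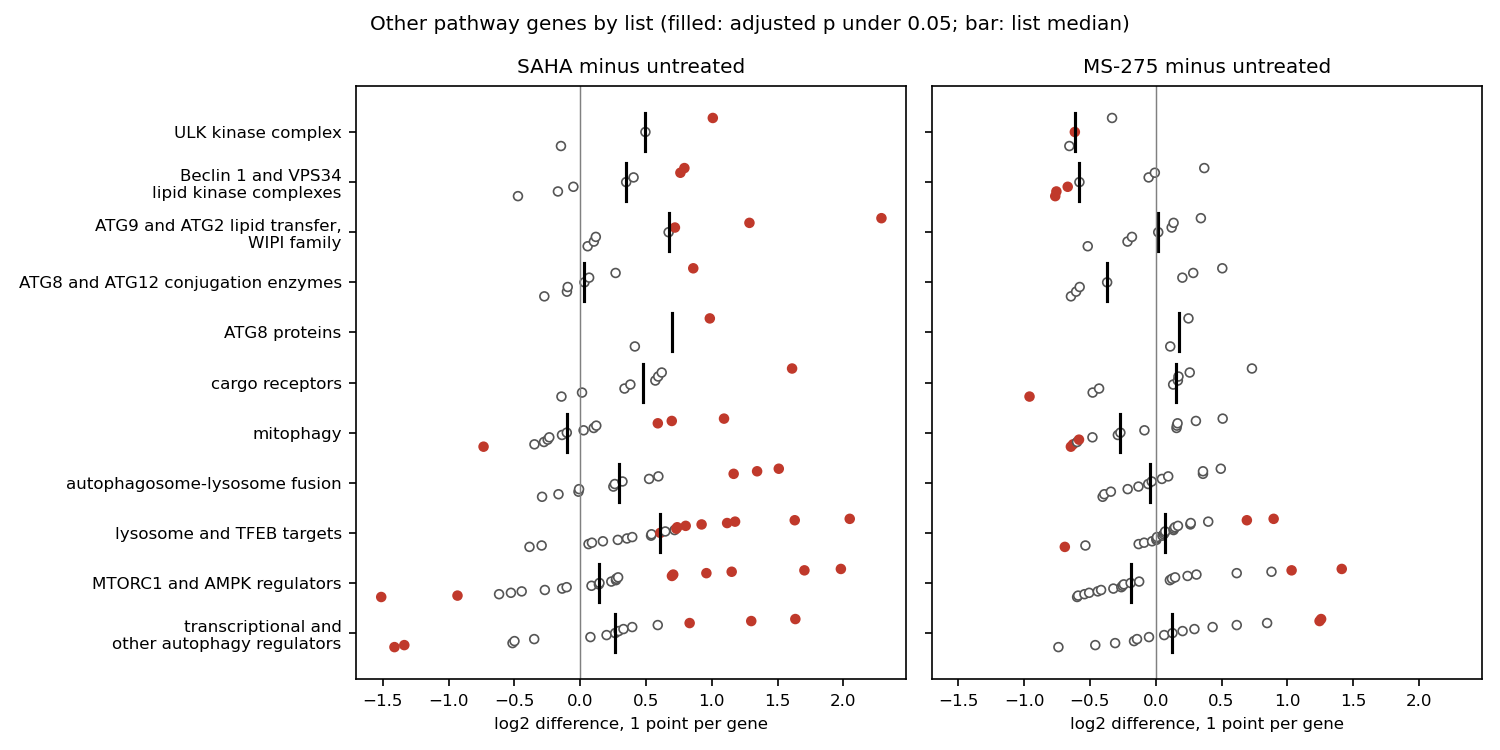
Log2 change of the other pathway genes (horizontal axis, 1 point per gene) by list (vertical axis), with SAHA and with MS-275 against untreated cells. Filled points had an adjusted p under 0.05 and bars mark list medians. The lysosome list had 9 of 21 genes higher with SAHA (42.9%, against 12% of all genes) and 2 with MS-275 (9.52%, against 4.33%).

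Among initiation genes, ATG101, a subunit of the ULK kinase complex, rose 2.01-fold with SAHA (adjusted p = 0.00483) and had a log2 change of −0.62 with MS-275 (adjusted p = 0.0458), and the other 2 subunits tested did not pass with either. Of 7 tested genes of the Beclin 1 and VPS34 complexes, 2 rose with SAHA: PIK3R4, the regulatory subunit (log2 change 0.79, adjusted p = 0.0104), and PIK3C3, the lipid kinase itself (0.76, adjusted p = 0.024). With MS-275, 3 of the 7 fell. They were PIK3R4 (log2 change −0.67, adjusted p = 0.0351) and the alternative subunits ATG14 (−0.76, adjusted p = 0.016) and UVRAG (−0.76, adjusted p = 0.0311). Each of these MS-275 calls was lost when any 1 line was left out.

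Of 7 genes of membrane supply and the WIPI family, 3 rose with SAHA and 0 passed with MS-275. ATG2A, which transfers lipid to the growing membrane and binds WIPI proteins, rose 4.89-fold with SAHA (log2 change 2.29 ± 0.20, adjusted p = 0.00147), against a log2 change of −0.21 ± 0.20 with MS-275 (adjusted p = 0.504). The scramblases TMEM41B and VMP1 had log2 rises of 1.29 (adjusted p = 0.00557) and 0.72 (adjusted p = 0.00664) with SAHA. Of 7 conjugation enzymes, 1 rose with SAHA (14.3%, against 12% of all genes). It was the ATG8-processing protease ATG4A (log2 change 0.86, adjusted p = 0.0268). Of 2 further ATG8 proteins tested, GABARAPL2 rose (0.99, adjusted p = 0.00343).

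Of 8 cargo receptors, 1 rose with SAHA (12.5%, against 12% of all genes), OPTN (optineurin), by 3.05-fold (adjusted p = 0.00566). OPTN was detected on 2 of the 3 untreated arrays, so its fold rests partly on a value near background. With MS-275, 1 of the 8 fell (12.5%, against 7.47% of all genes), TOLLIP (log2 change −0.96, adjusted p = 0.0461). Of 13 further mitophagy genes, 3 rose and 1 fell with SAHA. PINK1, the kinase that marks damaged mitochondria, rose 2.13-fold (adjusted p = 0.0111), the fusion GTPase MFN1 had a log2 change of 0.70 (adjusted p = 0.0183) and USP30, a deubiquitinase that opposes mitophagy, one of 0.59 (adjusted p = 0.0414). FUNDC1, another mitochondrial receptor, fell by 0.73 on the log2 scale (adjusted p = 0.0161). With MS-275, MFN1, USP30 and the ubiquitin ligase SMURF1 fell by 0.63, 0.65 and 0.58 on the log2 scale (adjusted p = 0.0447, 0.0497 and 0.033).

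Of 12 fusion genes, 3 rose with SAHA and 0 passed with MS-275. They were PLEKHM1, an adaptor between autophagosome and lysosome (log2 change 1.51, adjusted p = 0.00316), TECPR1, which tethers the same membranes (1.34, adjusted p = 0.00554), and the SNARE protein SNAP29 (1.17, adjusted p = 0.00911). Of 21 lysosome genes and targets of TFEB, the factor that drives lysosome genes, 9 rose with SAHA and 0 fell. The sialidase NEU1 rose 4.14-fold (adjusted p = 0.0043), the lysosomal calcium channel MCOLN1 3.10-fold (adjusted p = 0.00416), and the proton pump subunits ATP6V0D1 and ATP6V1A 2.26-fold and 2.17-fold (adjusted p = 0.00298 and 0.0158). With MS-275, 2 of the 21 rose, the proteases CTSB (log2 change 0.90, adjusted p = 0.0237) and CTSL (0.69, adjusted p = 0.0493), and 1 fell, the proton pump subunit ATP6V1H (−0.69, adjusted p = 0.0385), which rose with SAHA (0.73, adjusted p = 0.0176). ATP6V1H, and MLST8 and MCL1 in the lists that follow, were named after their values were seen.

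Of 21 regulators around MTORC1 and AMPK, 6 rose and 2 fell with SAHA. The sestrins SESN2 and SESN1 rose 3.95-fold (adjusted p = 0.00211) and 3.26-fold (adjusted p = 0.00514), and DDIT4 rose 2.22-fold (adjusted p = 0.00755). AKT1S1 (PRAS40) fell by 1.51 on the log2 scale (adjusted p = 0.00262), and MLST8 by 0.93 (adjusted p = 0.00749). The SESN2 rise was 2.18-fold in the authors' deposited log2 values and 2.59-fold with a background offset of 50. SESN2 was detected on 2 of the 3 untreated arrays. With MS-275, 2 of the 21 rose, DDIT4 (2.66-fold, adjusted p = 0.0116) and SESN2 (2.05-fold, adjusted p = 0.0304).

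Of 15 transcriptional and other regulators, 3 rose and 2 fell with SAHA (20% and 13.3%, against 12% and 11.8% of all genes). FOXO1, a factor that activates autophagy genes, rose 3.11-fold (adjusted p = 0.00811; 1.95-fold in the authors' deposited log2 values), and TP53INP1, which binds ATG8 proteins, 2.46-fold (adjusted p = 0.0289). The third was MCL1, a relative of BCL2 (log2 change 0.83, adjusted p = 0.00412). FOXO1 and TP53INP1 were each detected on 2 of the 3 untreated arrays, so their folds rest partly on a value near background. BCL2L1, also a relative of BCL2, and the pseudokinase TRIB3 fell by 1.41 and 1.34 on the log2 scale (adjusted p = 0.00309 and 0.0103). With MS-275, 2 of the 15 rose, FOXO1 (2.37-fold, adjusted p = 0.0385) and the p53 target DRAM1 (2.39-fold, adjusted p = 0.00667). DRAM1 had a log2 change of 0.29 with SAHA (adjusted p = 0.17), and its level with SAHA was below that with MS-275 (log2 difference −0.96, adjusted p = 0.00446). Of 28 pathway genes named by rule and called with SAHA, 18 lost the call without at least 1 line (14 without NB4, 6 without K562 and 16 without U937, at adjusted p of 0.0505 to 0.199). The 10 that kept it without any 1 line were ATG101, ATG2A, GABARAPL2, PLEKHM1, NEU1, ATP6V0D1, SESN2, SESN1, AKT1S1 and BCL2L1. All 14 called with MS-275 lost the call without NB4 and without U937, and 12 of them without K562 (adjusted p of 0.055 to 0.245). Some calls near the threshold were also lost when the processing changed. With SAHA these were ATG4A with equal medians (0.0518) and without a detection filter (0.0505), USP30 without that filter (0.0554) and with an intensity trend (0.0593), and TP53INP1 without the filter (0.0662). With MS-275, USP30 (0.0594 to 0.0728) and CTSL (0.0527 to 0.0698) each lost the call in 4 settings, TOLLIP in 3 (0.0521 to 0.0807) and MFN1 in 2 (0.0542 and 0.063). Each of ATG101 (0.0543), SESN2 (0.0526) and FOXO1 (0.0736) lost its MS-275 call without a detection filter, and SMURF1 lost it in the authors' deposited log2 values (0.0565).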

How the data were processed

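RNA of the 3 lines was labelled as biotinylated cRNA, per the labels' protocols, and hybridized to 9 Illumina bead arrays. The authors deposited bead intensity per probe, neither background-corrected nor normalized as found from the values, with array medians of 104 to 139, and a detection p-value for each intensity. The authors also deposited log2 values, and the submitters' processing notes name lumi. These values matched the quantile-normalized log2 intensity within 0.001 for all 199593 values. The 2 tables were linked by each probe's ranks over the arrays, which paired all 22177 probes. Symbols came from the platform annotation (19708 probes with 1 symbol, 0 with several, 2469 with none).

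Intensities were background-corrected with nec of limma 3.58.1 (R 4.3.3) with an offset of 16, quantile-normalized and log2-transformed. Probes with a detection p under 0.05 on at least 3 of 9 arrays were tested in a limma model of treatment and cell line. The line is the pairing of treated with untreated arrays, and replicate numbers add none. Adjusted p-values follow Benjamini and Hochberg over all probes tested, two-sided, and errors are standard errors. Line dependence was an F test of line with treated against untreated. The number of arrays limits the precision.

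All 10 genes are named, with, from each of 11 pathway lists, up to 4 called genes of largest change with SAHA and up to 2 called with MS-275 only. The genes and lists were chosen with earlier results of these data known. Alternatives were the deposited log2 values, an offset of 50, equal medians, 4 choices of probe or detection filter, an intensity trend, leaving out each line, and no line term.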

Additional observations from a re-analysis of the deposited data

How the results depend on the processing

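The direction of every called value of the 10 genes was kept under all alternatives run. For SAHA against untreated cells, 6 of the 10 genes passed in the reported fit and in each of the 8 settings that changed the background, scaling, filter or variance model, 2 to 4 passed with 1 line left out (2 without NB4, 3 without U937, 4 without K562), and 0 without the line term. WIPI1 and MAP1LC3B kept the call without any 1 line. For MS-275 against untreated cells, 0 passed in the reported fit and 1 with equal medians, 1 without a detection filter, 3 with the probes detected on all 9 arrays, 1 with a detection p under 0.01 and 1 with an intensity trend. For SAHA against MS-275, 5 passed, 3 to 4 with 1 line left out (3 without U937) and 0 without the line term. For NB4 against K562, 5 passed, and 3 without a detection filter.

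Of the other pathway genes, 33 rose with SAHA, 11 to 24 with 1 line left out and 1 without the line term. The number that fell with SAHA was 5, and 8 in the deposited log2 values, 11 with equal medians, 8 with an intensity trend, 2 to 3 with 1 line left out and 0 without the line term. With MS-275, 6 rose, and 3 without a detection filter, 0 to 2 with 1 line left out and 0 without the line term. With MS-275, 9 fell, and 27 with equal medians, 0 with any line left out and 0 without the line term. SAHA was above MS-275 for 40, for 10 to 28 with 1 line left out and for 2 without the line term. It was below for 10, for 2 to 5 with 1 line left out and for 0 without the line term.

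Over all probes, SAHA changed 3155, and 1085 without NB4, 1995 without K562, 1216 without U937 and 98 without the line term. MS-275 changed 1547, and 2611 with equal medians, 2 without NB4, 265 without K562, 0 without U937 and 2 without the line term. The inhibitors differed for 3191 probes, and for 1055 without NB4, 2100 without K562, 550 without U937 and 65 without the line term. K562 and U937 differed for 7323 probes, and for 4864 of those detected on all arrays, where fewer were tested. Equal medians moved the median log2 change of all probes with MS-275 to −0.14, against −0.03 with quantile scaling, and the share of calls that were higher to 35.3% against 49.5% with SAHA and to 16.2% against 35.7% with MS-275. Leaving out a line leaves fewer arrays, and the cause of the other shifts was not tested. The line term of the reported fit is the pairing of treated with untreated arrays, and the replicate number in the labels, the same for all arrays, gives no other.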
